A study of Mus musculus with 27 samples.

Results

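The pancreatic islet hormones were followed through Myc activation and withdrawal in the islets of transgenic mice. The genes are Ins1 and Ins2 (the mouse insulin genes), Iapp (amylin), Gcg (glucagon), Sst (somatostatin) and Ppy (pancreatic polypeptide). They were chosen by name, and each probe set whose only gene symbol in the platform annotation is one of these was kept apart. Of the 6 genes, 5 have a probe set, and they have 7 of the 12422 probe sets tested: 100150_f_at and 161849_r_at for Ins2, 99488_at for Iapp, 94633_at for Gcg, 95436_at for Sst, and 94148_at and 162464_f_at for Ppy. No probe set has Ins1 as its only symbol, so Ins1 has no level of its own here.

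The series holds 27 arrays, each of 1 sample of laser-captured islets, in 9 groups of 3. The mice of every group, the untreated ones included, carried the transgenes MycER and BclXL, both under an insulin promoter. MycER is a Myc protein that becomes active when 4-hydroxytamoxifen binds it, and BclXL is a protein that protects cells from apoptosis. The groups are untreated mice (the time 0 controls), mice killed 2, 4, 8 or 24 h after a systemic injection of 4-hydroxytamoxifen, mice given daily doses for 21 days, and mice killed 2, 4 or 6 days after a 21 day course had ended (called off 2, off 4 and off 6 days). The labels give no strain, age or sex, and none of the groups used here lacks the transgenes or received the injection vehicle alone. They name no untreated group matched in time to the 21 day and off drug groups. Elapsed time and repeated dosing therefore cannot be told apart from Myc activation in those groups. An insulin promoter is active mainly in beta cells, the insulin-making cells of the islet, and the arrays read all cells of the captured tissue.

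Each islet hormone is the product of a particular endocrine cell type. Beta cells make insulin and release amylin together with it, alpha cells make glucagon, delta cells make somatostatin, and PP cells make pancreatic polypeptide. Each is made as a longer precursor that convertases cut inside the secretory granule. Insulin lowers and glucagon raises blood glucose, and somatostatin restrains the release of both.

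The sequences just upstream of the hormone genes are shown because they hold short motifs of the factors that the design and the islet bring together: the Myc E box CACGTG, the E box CATCTG of the kind bound by NeuroD1 and its partners, the homeodomain core TAATTA that Pdx1 and other islet homeodomain proteins can bind, the cyclic AMP response element TGACGTCA, and the TATA box TATAAA. RefSeq promoters of build GRCm38.p6 were read over the 250 bases before the annotated start, and matches on either strand are in capitals. On the other strand the NeuroD1 type of E box reads CAGATG and the TATA box reads TTTATA, and the other motifs read the same on both strands. Ins1, whose promoter is the mouse insulin promoter shown here (the labels do not say which insulin promoter drives the transgenes), lies at chr19:52264297-52265015 and its window at chr19:52264047-52264296 on the plus strand. Iapp lies at chr6:142298425-142303820 and its window at chr6:142298175-142298424 on the plus strand. Gcg lies at chr2:62474530-62483653 and its window at chr2:62483654-62483903 on the minus strand. Ppy lies at chr11:102099931-102101319 and its window at chr11:102101320-102101569 on the minus strand.
Ins1: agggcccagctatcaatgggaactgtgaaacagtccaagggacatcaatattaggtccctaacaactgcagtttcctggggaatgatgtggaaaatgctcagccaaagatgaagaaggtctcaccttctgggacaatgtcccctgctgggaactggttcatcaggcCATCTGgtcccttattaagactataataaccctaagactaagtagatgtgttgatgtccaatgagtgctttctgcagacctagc
Iapp: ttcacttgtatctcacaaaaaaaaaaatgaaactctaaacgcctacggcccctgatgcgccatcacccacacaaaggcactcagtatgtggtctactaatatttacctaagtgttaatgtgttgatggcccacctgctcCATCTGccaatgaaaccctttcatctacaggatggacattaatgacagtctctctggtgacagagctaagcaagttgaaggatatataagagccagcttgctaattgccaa
Gcg: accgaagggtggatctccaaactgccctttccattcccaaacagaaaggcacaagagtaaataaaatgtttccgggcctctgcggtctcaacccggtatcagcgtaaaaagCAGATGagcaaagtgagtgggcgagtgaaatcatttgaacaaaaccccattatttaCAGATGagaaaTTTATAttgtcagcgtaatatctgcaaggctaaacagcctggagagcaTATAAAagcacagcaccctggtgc
Ppy: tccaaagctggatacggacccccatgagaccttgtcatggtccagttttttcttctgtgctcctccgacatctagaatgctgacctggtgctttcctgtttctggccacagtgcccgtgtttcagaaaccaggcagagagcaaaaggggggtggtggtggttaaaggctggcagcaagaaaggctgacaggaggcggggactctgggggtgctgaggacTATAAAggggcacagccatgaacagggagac

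The E box CATCTG began at base -84 of Ins1, at -111 of Iapp, and at -139 and -83 of Gcg, counted from the annotated start. It was present in 3 of the 5 hormone windows, and in 14.4% of the 32851 promoter windows of the same length. TATAAA was found in Gcg (bases -72 and -24) and Ppy (base -31), and in 12.4% of all windows. The window of Sst, which lies inside its annotated locus at chr16:23889573-23891342 on the minus strand and is not printed, held TGACGTCA at base -48, a motif of 1.55% of all windows. CACGTG, in 6.02% of all windows, and TAATTA, in 4.84%, were not among the letters of any of the 5 hormone windows. Ins2, at chr7:142678656-142679726, is named only.

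Levels are given on the log2 scale as deposited, so a difference of 1 is a change of 2-fold in signal. Probe sets differ in how brightly they bind, so the level of 1 probe set is not set against that of another as an amount of RNA. A difference was called at a Benjamini-Hochberg adjusted p under 0.05 over all 12422 probe sets, in limma's test fitted to all 27 arrays. In a laser-captured tissue, fewer cells of a type and less RNA per cell cannot be told apart. Nothing in the labels says that the 3 arrays of a group came from separate mice, so the p-values measure the spread between these samples, part of which may be technical.

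The arrays were alike in scale. The median of an array was 6.91 to 7.01, and r between replicate arrays over all probe sets was 0.957 to 0.992. The acinar marker mean, over 17 measured markers of the exocrine tissue around islets, lay between 11.05 and 11.61 at 24 h, between 7.26 and 7.82 at 21 days and between 8.02 and 10.53 in untreated islets. A set of 4 arrays stood apart by a leukocyte marker mean of 8.15 to 8.61, over 36 measured markers: 2 h replicate 1, 8 h replicate 3, off 2 days replicate 2 and off 6 days replicate 1. The labels name no batch.

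**Figure D1:**
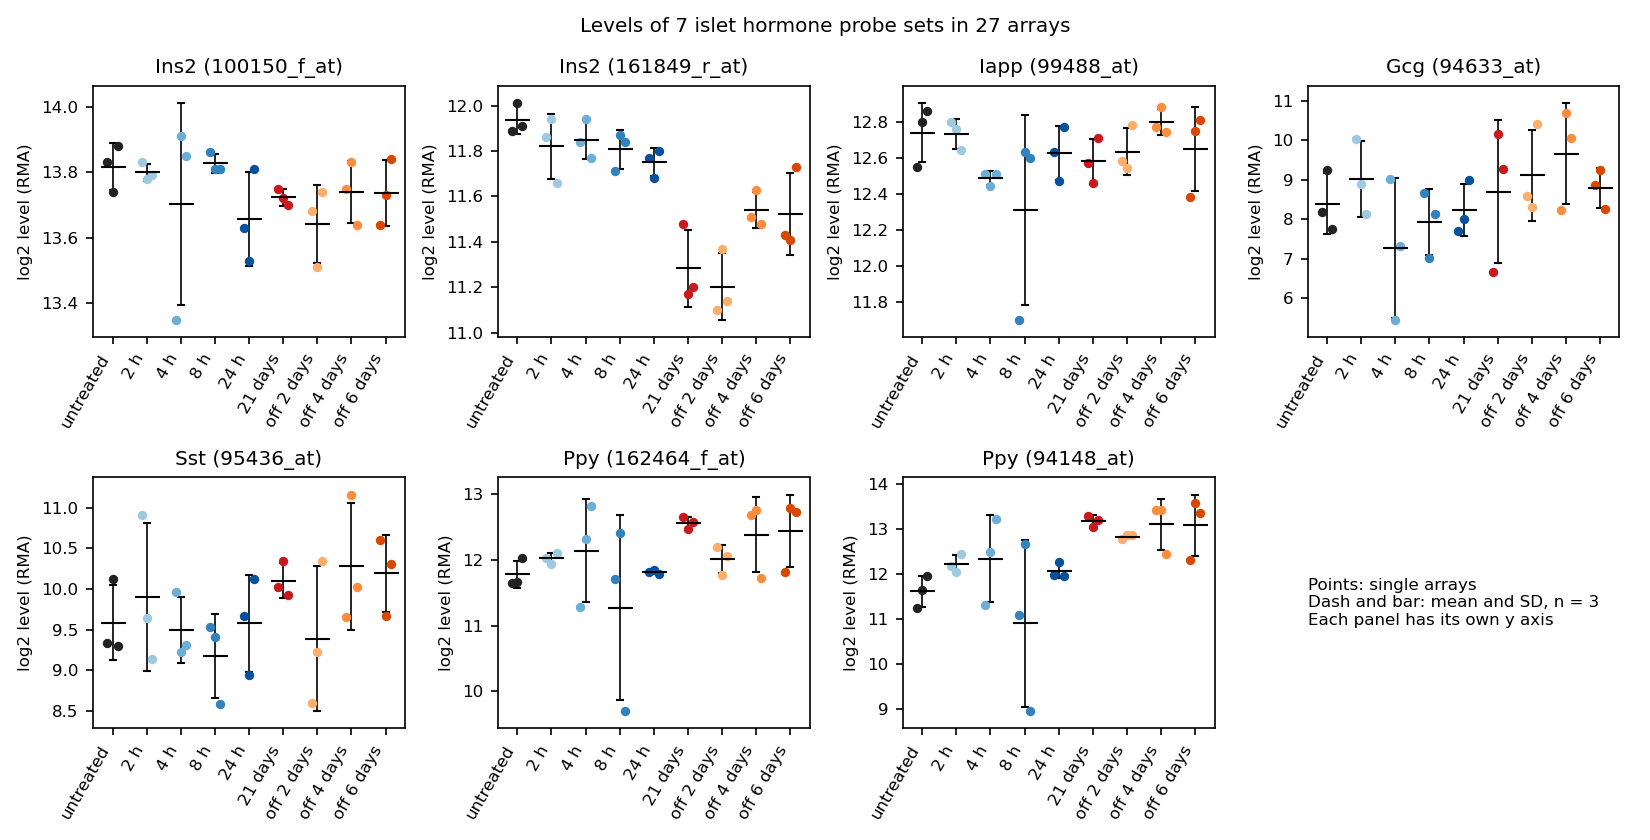
Log2 levels (vertical axes, each panel with its own range) of the 7 islet hormone probe sets in the 9 groups (horizontal axes), with 1 point per array and the mean and SD of each group (n = 3). The Ins2 probe set 161849_r_at sits at 11.10 to 11.73 in the 12 arrays of 21 days and off drug and at 11.66 to 12.01 in the other 15, and Gcg spans 5.46 to 10.68.

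Insulin was measured by a pair of Ins2 probe sets, and they differed. The level of 161849_r_at fell by 0.653 on the log2 scale after 21 days of Myc activation, to 0.636 of the untreated level, and it was still lower at every time off drug. The level of 100150_f_at, which sits near the top of the scale, had no called change in any of the 12 comparisons. For 161849_r_at the 3 arrays read 11.89, 12.01 and 11.91 in untreated islets, 11.86, 11.94 and 11.66 at 2 h, 11.84, 11.94 and 11.77 at 4 h, 11.71, 11.87 and 11.84 at 8 h, and 11.77, 11.68 and 11.80 at 24 h. They read 11.48, 11.17 and 11.20 at 21 days, 11.10, 11.37 and 11.14 at off 2 days, 11.51, 11.63 and 11.48 at off 4 days, and 11.43, 11.41 and 11.73 at off 6 days. The arrays of 2 h and 4 h overlapped the untreated arrays, and those of 8 h, 24 h, 21 days and the 3 groups off drug all lay below them. The changes at 8 h (-0.13) and 24 h (-0.187) were not called (limma adjusted p = 0.568 and 0.518).

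The 21 day islets averaged 11.28 ± 0.17 for 161849_r_at and the untreated islets 11.94 ± 0.06 (SD, n = 3 each). The change was -0.653 with a standard error of 0.106, a 95% interval of -0.873 to -0.434 and a limma adjusted p of 0.000421. Against 24 h islets (11.75 ± 0.06, SD, n = 3) the 21 day change was -0.467 with a limma adjusted p of 0.00397, a call lost with quantile normalization (-0.306, limma adjusted p = 0.0696). At off 2 days the change from untreated was -0.733 (0.602-fold, limma adjusted p = 9.1e-05). At off 4 days it was -0.397 (0.760-fold, limma adjusted p = 0.00923), and at off 6 days -0.413 (0.751-fold, limma adjusted p = 0.0137). The off 6 days call was lost when untreated replicate 2 (-0.377, limma adjusted p = 0.054), off 6 days replicate 1 (-0.367, limma adjusted p = 0.0576) or off 6 days replicate 2 (-0.357, limma adjusted p = 0.0657) was left out. It was also lost without the 4 leukocyte-rich arrays (-0.367, limma adjusted p = 0.0688), with the acinar and leukocyte marker means as covariates (-0.39, limma adjusted p = 0.0599) and in a fit of only the 6 arrays compared (limma adjusted p = 0.15). The 21 day change from untreated stayed called without the leukocyte-rich arrays. None of them is an untreated or 21 day array, so the change itself (-0.653) could not move.

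Return towards the untreated level was not established. Off 4 days islets averaged 0.257 above 21 day islets for 161849_r_at (11.54 ± 0.08 against 11.28 ± 0.17, SD, n = 3 each), with an unadjusted p of 0.024 in limma and an adjusted p of 0.124. Off 6 days islets averaged 0.240 above them (limma adjusted p = 0.32), and off 2 days islets 0.080 below them. In the order of the group means, untreated, 4 h, 2 h, 8 h and 24 h came first, then off 4 days, off 6 days, 21 days and off 2 days. Of the 8 neighbouring pairs in this order, 7 overlapped, and the step of 0.21 between 24 h and off 4 days was the exception. Of the 12 arrays of 21 days or off drug, 11 lay below all 15 arrays of untreated islets and the first day after an injection.

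Markers of exocrine tissue and a sign of RNA quality were set beside the lower Ins2 signal. Within groups 161849_r_at did not follow the acinar marker mean (r = 0.00191 over 27 arrays, each taken as its deviation from the group mean). A covariate takes its slope from the spread within groups, so the acinar mean could hardly move the changes of 161849_r_at. With it the 21 day change from untreated was -0.653 (limma adjusted p = 0.00182). The change from 24 h, where acinar markers were highest, was then -0.466 and no longer called (limma adjusted p = 0.0897). The signal of the Gapdh control was higher at its 3' than its 5' end by 4.77 to 4.92 (log2) at 21 days and by 3.09 to 4.45 off drug, against 3.65 to 5.67 in untreated islets. With this difference as a covariate the 21 day change was -0.653 and the changes off drug were -0.740, -0.402 and -0.418, all still called by limma. The 21 day values lie inside the untreated range, and a covariate that differs little between groups can move their difference little. The part of RNA quality or exocrine tissue in the lower Ins2 signal was not tested.

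For 100150_f_at all 27 arrays lay between 13.35 and 13.91. The arrays read 13.75, 13.72 and 13.70 at 21 days, 13.68, 13.51 and 13.74 at off 2 days, 13.75, 13.83 and 13.64 at off 4 days, and 13.64, 13.73 and 13.84 at off 6 days, against 13.83, 13.74 and 13.88 in untreated islets. Each of these groups reached the untreated range, 21 days and off 2 days at its lower end only. The 21 day change was -0.093 with a 95% interval of -0.327 to 0.14 (limma adjusted p = 0.635). That interval and the one of 161849_r_at do not overlap, but the difference between the probe sets was not tested.

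The reading of 100150_f_at lies close to the top of the scale, and whether saturation limits it was not tested. It was 0.41 to 0.91 below the brightest probe set of its array, ranked 4 to 8 among all probe sets in each array, and had the 4th highest mean of the table. Among the 7 probe sets with the highest means, the median within-group SD was 0.137, the median range over all arrays was 0.71, and 0% were called at 21 days against untreated. By the F test over the 9 groups 14.3% of the 7 were called, so a called difference did occur at this level. Among the 170 probe sets with a mean between 11 and 12, where 161849_r_at lies, the median SD was 0.238, the median range was 1.25, and 25.9% were called, 14.7% as lower. The brightest probe sets with a gene symbol include Rpl41, Rps28 and Rplp0 (ribosomal proteins). Over the 27 arrays 100150_f_at was most like Rpl41 (r = 0.784), Rps24 (r = 0.763), also a ribosomal protein gene, and Tbc1d24 (r = 0.743). The rule on likeness takes the brightest probe set of a gene. For the other Ins2 probe set, 161849_r_at, looked up outside that rule, the genes were Ndst2 (a heparan sulfate sulfotransferase; r = 0.903), Tradd (an adaptor of tumour necrosis factor receptor signalling; r = 0.897) and Spock2 (an extracellular proteoglycan; r = 0.896). The 4 h replicate 1 array, whose 100150_f_at reading was the lowest, also had the lowest maximum, 13.76 against 14.12 to 14.47 in the other 26 arrays, a difference whose part in that reading was not tested.

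**Figure D2:**
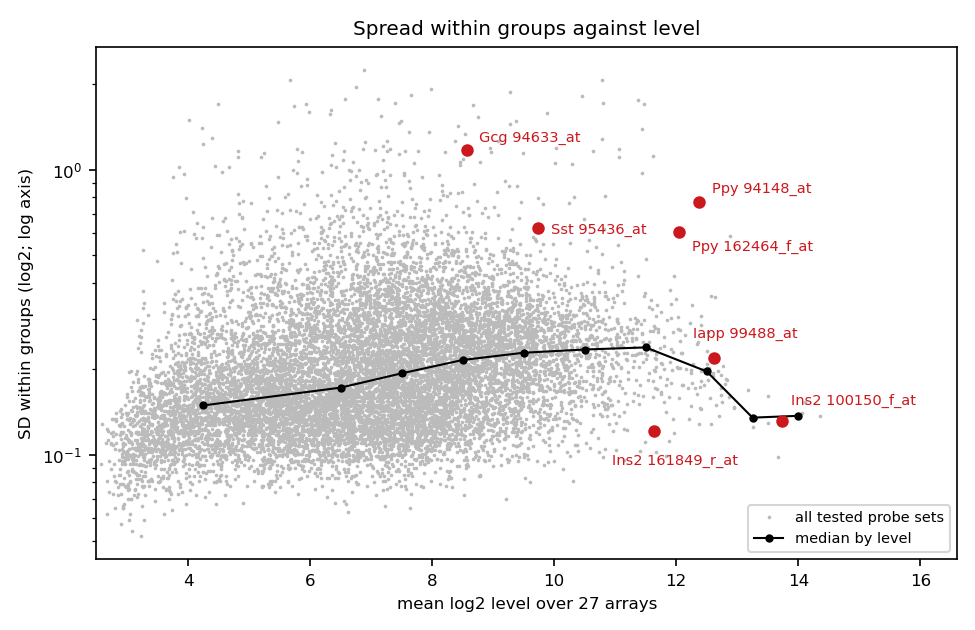
Within-group SD (vertical, log axis) against the mean log2 level over 27 arrays (horizontal) of all 12422 tested probe sets (grey), with the median by level (black line) and the 7 islet hormone probe sets (red). The median SD falls from 0.238 for means of 11 to 12 to 0.137 among the 7 brightest, where 100150_f_at (SD 0.131) lies, and Gcg (SD 1.169) lies far above the median of its level.

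By the maker's naming, the endings _f_at and _r_at mark probe sets whose probes are shared within a gene family or were chosen under relaxed rules. Ins1 and Ins2 are close copies, and the files do not show how far either Ins2 probe set reads Ins1 RNA. Of the 901 probe sets ending in _r_at, 8.66% were lower at 21 days and 16.1% at off 2 days against untreated. Of the 9614 with the plain ending _at, 7.41% and 10.2% were.

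Iapp encodes amylin, the peptide stored and released with insulin. Its 3 arrays read 12.55, 12.80 and 12.86 in untreated islets, 12.80, 12.76 and 12.64 at 2 h, 12.51, 12.44 and 12.51 at 4 h, 11.70, 12.63 and 12.60 at 8 h, and 12.63, 12.47 and 12.77 at 24 h. They read 12.57, 12.46 and 12.71 at 21 days, 12.58, 12.54 and 12.78 at off 2 days, 12.77, 12.88 and 12.74 at off 4 days, and 12.38, 12.75 and 12.81 at off 6 days. All groups except 4 h overlapped the untreated arrays, and the 4 h arrays lay just below them. No change was called. At 4 h the change was -0.25 with a standard error of 0.173 (limma adjusted p = 0.918). At 8 h it was -0.427 (95% interval -0.786 to -0.068, limma adjusted p = 0.236), and the 11.70 of replicate 1 gave this group an SD of 0.528. Without that array the 8 h change was -0.122 (limma adjusted p = 0.759). At 21 days it was -0.157 with a 95% interval of -0.516 to 0.202 (limma adjusted p = 0.598).

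Over the 27 arrays Iapp was most like Scg2 (secretogranin II, a granule protein; r = 0.837), Slc38a4 (an amino acid transporter; r = 0.792) and Cpe (carboxypeptidase E, which trims hormone precursors; r = 0.783). The deviations of Iapp from its group means did not track those of the Ins2 probe sets (r = 0.148 with 100150_f_at and 0.36 with 161849_r_at, permutation p adjusted over 35 relations of 0.53 and 0.281).

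Ppy encodes pancreatic polypeptide, and both of its probe sets had their highest group mean after 21 days of Myc activation. The level of 94148_at averaged 13.18 ± 0.13 at 21 days against 11.62 ± 0.35 in untreated islets (SD, n = 3 each), which is 2.96-fold, but limma did not call the difference (95% interval 0.354 to 2.779 on the log2 scale, adjusted p = 0.0746). The arrays of 94148_at read 11.25, 11.65 and 11.95 in untreated islets, 12.19, 12.06 and 12.44 at 2 h, 11.31, 12.49 and 13.23 at 4 h, 11.10, 12.66 and 8.96 at 8 h, and 11.99, 12.28 and 11.97 at 24 h. They read 13.30, 13.05 and 13.20 at 21 days, 12.79, 12.86 and 12.86 at off 2 days, 13.43, 13.43 and 12.46 at off 4 days, and 12.31, 13.59 and 13.35 at off 6 days. The untreated arrays lay below every array of 2 h, 24 h, 21 days and the 3 groups off drug, and were overlapped by 4 h and 8 h.

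Off drug, the changes of 94148_at from untreated were 1.22 at 2 days, 1.49 at 4 days and 1.467 at 6 days, with limma adjusted p of 0.15, 0.0681 and 0.111. At 2 h and 24 h they were 0.613 and 0.463 and were not called either (limma adjusted p = 0.687 and 0.827). Over all 9 groups together, limma's moderated F test called a difference for this probe set (adjusted p = 0.0308). That call was lost without 8 h replicate 1 (adjusted p = 0.0577), 21 days replicate 1 (0.0536), off 4 days replicate 1 (0.053) or off 4 days replicate 2 (0.0524), and with the acinar marker mean as a covariate (0.102). In the order of the means, 21 days, off 4 days, off 6 days and off 2 days came first, then 4 h, 2 h, 24 h, untreated and 8 h, and 7 of the 8 neighbouring pairs overlapped.

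The second Ppy probe set, 162464_f_at, read 12.65, 12.47 and 12.57 at 21 days against 11.65, 11.66 and 12.02 in untreated islets, with no overlap. The change was 0.787 with a 95% interval of -0.167 to 1.74 (limma adjusted p = 0.271). Over all arrays it lay between 9.70 and 12.81. The pair of Ppy probe sets moved together within groups, with Pearson's r of 0.97 and Spearman's rho of 0.89 over 27 arrays (permutation p adjusted over 35 relations = 0.0021 and 0.00245). Without the 2 arrays farthest out, r was 0.941.

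The spread of Ppy rested in part on 8 h replicate 3, which read 8.96 for 94148_at and 9.70 for 162464_f_at, the lowest of all 27 arrays for both. That array had the highest acinar marker mean of its group (11.09, against 9.47 and 9.22 in the others) and a leukocyte mean of 8.42. Without it, the 8 h change of 94148_at from untreated was 0.263 in place of -0.71, and neither was called. Without the 4 leukocyte-rich arrays, limma called 94148_at higher at 21 days (adjusted p = 0.0129), at off 4 days (adjusted p = 0.0114) and at off 6 days (1.853, adjusted p = 0.0163) against untreated. None of these arrays is in the untreated, 21 days or off 4 days groups. The changes at 21 days (1.567) and off 4 days (1.49) were therefore unmoved, and only the estimated spread and the adjustment differed. The fit without these arrays was chosen after seeing the data.

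Within groups, Ppy read lower in arrays with more acinar signal. For 94148_at r with the acinar marker mean was -0.496 (permutation p adjusted over 35 relations = 0.0488; rho = -0.476, adjusted p = 0.175; r = -0.398 without the 2 farthest arrays), and for 162464_f_at it was -0.558 (adjusted p = 0.0488; rho = -0.553, adjusted p = 0.0913; r = -0.483). With the leukocyte mean r was -0.667 for 94148_at (adjusted p = 0.1) and -0.683 for 162464_f_at (adjusted p = 0.0488; rho = -0.514, adjusted p = 0.176; r = -0.501 without the 2 farthest arrays). None of these passed by rank. The acinar mean was itself 7.26 to 7.82 at 21 days against 8.02 to 10.53 in untreated islets, and the Ppy changes moved with it as a covariate. The 21 day change of 94148_at from untreated was then 0.969 in place of 1.567 (limma adjusted p = 0.277), and that of 162464_f_at 0.26 in place of 0.787 (limma adjusted p = 0.733). Against 24 h, where the acinar mean was highest (11.05 to 11.61), the 21 day change of 94148_at was -0.42, in place of 1.103 without the covariate. That of 162464_f_at was -0.597, in place of 0.747, and none of these was called. A covariate takes its slope from the spread within groups. The largest deviation of an acinar mean from its group mean was 1.89 (off 2 days replicate 2). The changes from 24 h therefore extend that slope over a wider gap than it was read from. Off drug, the changes of 94148_at from untreated were 0.702, 0.971 and 1.268 with the acinar covariate, none called. With both marker means as covariates they were 1.139, 0.912 and 1.888, of which the off 6 days change was called (limma adjusted p = 0.0256), and the 21 day change was 1.09 (limma adjusted p = 0.149). The part of exocrine tissue or leukocytes in the Ppy changes was not tested.

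The genes most like 94148_at over the 27 arrays were Dnaaf5 (an assembly factor for cilia; r = 0.749), Klhl7 (a ubiquitin ligase adaptor; r = 0.749) and Rdh11 (a retinol dehydrogenase; r = 0.745).

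**Figure D3:**
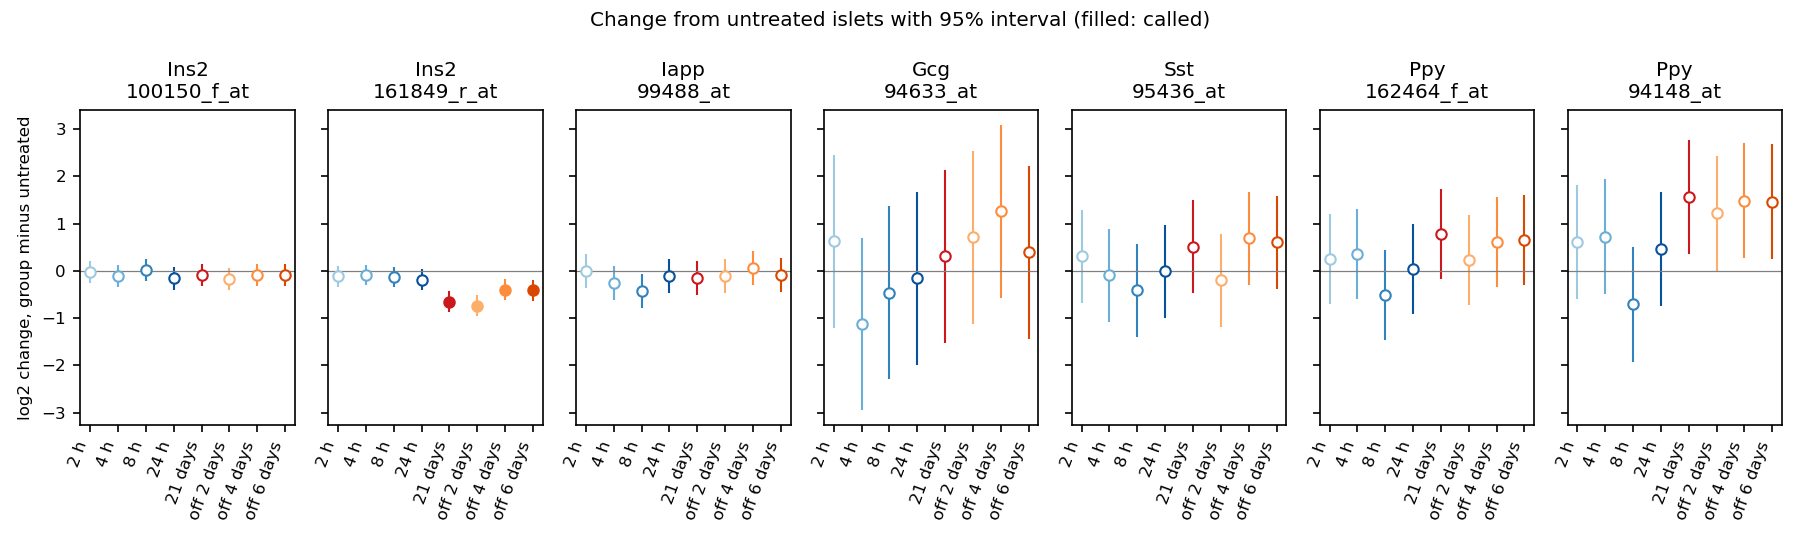
Log2 change from untreated islets with its 95% interval (vertical axis, shared by all panels) for the 7 islet hormone probe sets in the 8 treated groups (horizontal axes). Filled points mark called changes, which occur for 161849_r_at at 21 days and off 2, 4 and 6 days, while the intervals of Gcg reach from -2.953 to 3.097.

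Gcg encodes glucagon and its related peptides, and it varied more between arrays of a group than any other hormone measured. Its within-group SD was 1.169, so that the standard error of a change was 0.881 on the log2 scale. The arrays read 8.19, 9.24 and 7.74 in untreated islets, 10.04, 8.89 and 8.12 at 2 h, 9.01, 5.46 and 7.33 at 4 h, 8.66, 7.01 and 8.12 at 8 h, and 7.71, 8.00 and 8.98 at 24 h. They read 6.67, 10.16 and 9.26 at 21 days, 8.58, 8.32 and 10.42 at off 2 days, 8.23, 10.68 and 10.06 at off 4 days, and 8.87, 9.24 and 8.25 at off 6 days. Every group overlapped the untreated arrays, and the lowest array, 4 h replicate 2, stood 5.22 below the highest, off 4 days replicate 2. The largest group difference was at off 4 days (9.66 ± 1.27 against 8.39 ± 0.77 in untreated islets, SD, n = 3 each; 1.267, limma adjusted p = 0.319). It was 0.755 without off 4 days replicate 2 and 1.98 without off 4 days replicate 1, and was called in neither case. The 4 h change of -1.123 (limma adjusted p = 0.974) was -0.22 without 4 h replicate 2. At 21 days the change was 0.307 with a 95% interval of -1.523 to 2.137, which includes changes of 2-fold in either direction.

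Sst encodes somatostatin. It read 10.03, 10.34 and 9.93 at 21 days, 8.59, 9.22 and 10.35 at off 2 days, 9.65, 11.16 and 10.03 at off 4 days, and 10.60, 9.67 and 10.31 at off 6 days, against 9.34, 10.12 and 9.30 in untreated islets. In the first day the arrays lay between 8.58 (8 h replicate 3) and 10.91 (2 h replicate 1). All groups overlapped the untreated arrays, and all 8 neighbouring pairs in the order of the means overlapped. The change at off 4 days was 0.693 (limma adjusted p = 0.309), or 0.253 without off 4 days replicate 2, and at 21 days 0.513 with a 95% interval of -0.47 to 1.496 (limma adjusted p = 0.518).

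Gcg and Sst went up and down together among arrays of the same group. Their deviations from the group means correlated with Pearson's r of 0.594 and Spearman's rho of 0.617 over 27 arrays (permutation p adjusted over 35 relations = 0.046 and 0.0597), and r was 0.662 without the 2 arrays farthest out in Gcg. Neither followed the acinar mean (r = -0.0555 for Gcg and -0.206 for Sst, adjusted p = 0.991 and 0.861). Gcg and Ppy 94148_at had r of -0.308 (adjusted p = 0.512), and Sst and Ppy 94148_at 0.0371 (adjusted p = 0.999). Of the 35 relations computed, 6 passed by Pearson's r and 1, the pair of Ppy probe sets, by rank. Among these was also 100150_f_at with 162464_f_at (r = 0.495, adjusted p = 0.0488; rho = 0.588, adjusted p = 0.0614; r = 0.405 without the 2 farthest arrays). The gene most like both Gcg and Sst over all 27 arrays was Gpx3, a secreted glutathione peroxidase (r = 0.688 and 0.709). The next were Cfhr2 (0.688) and Sim1, a transcription factor gene (0.683), for Gcg, and Gm4788 (0.684) and Rap1b, a small GTPase (0.679), for Sst.

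**Figure D4:**
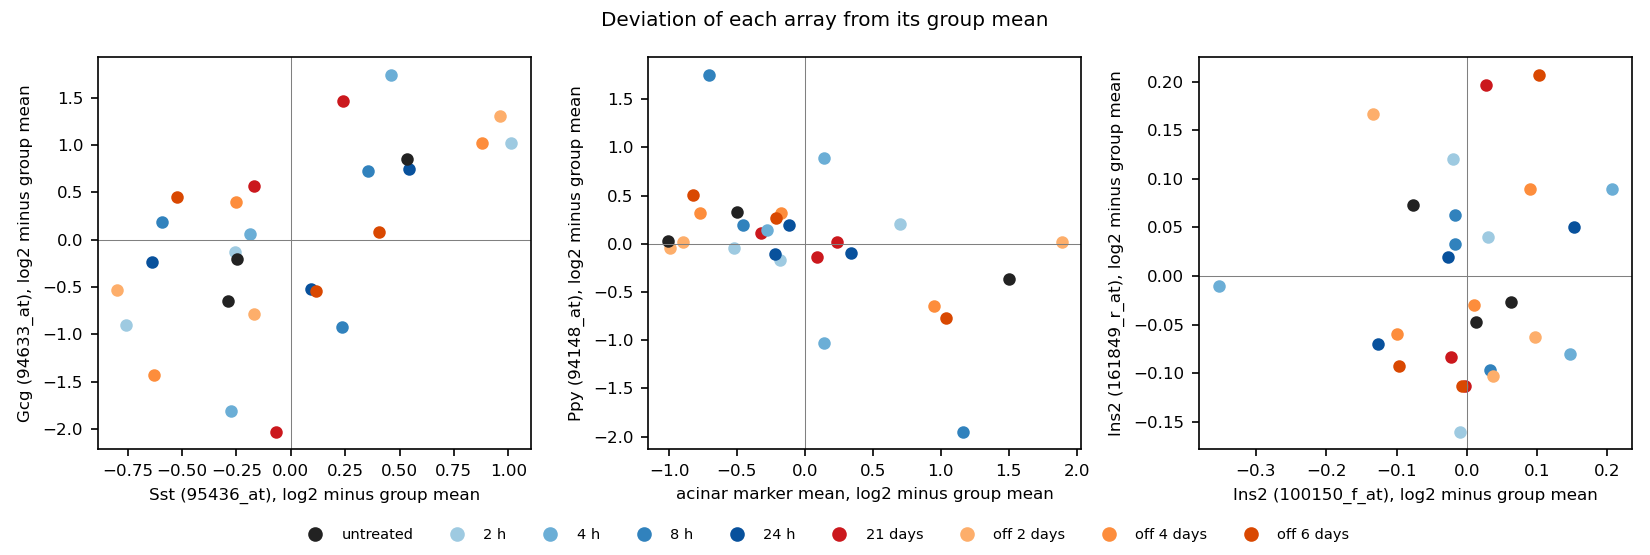
Deviation of each of the 27 arrays from its group mean on the log2 scale, in 3 pairings of measures (horizontal against vertical): Sst and Gcg, the acinar marker mean and Ppy 94148_at, and the Ins2 probe sets 100150_f_at and 161849_r_at. Colours mark the groups, and r is 0.594 in the first, -0.496 in the second and 0.12 in the third.

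Counted over the 7 hormone probe sets, 0 were called in the first day after an injection. Over all probe sets, 0.394% were called at 2 h, 0.797% at 4 h, 1.7% at 8 h and 1.38% at 24 h by limma. At an unadjusted p under 0.05, 1 of the 7 passed at 8 h (Iapp), with 15.9% of all probe sets passing, and 0 at 2, 4 and 24 h, with 11.7%, 8.34% and 11.8%. At 21 days 1 of 7 was called against untreated, with 14.6% of all probe sets called, and 1 of 7 against 24 h, with 20.8%. Off drug against untreated, 1 of 7 was called at each time, with 20.6% of all probe sets called at 2 days, 23.7% at 4 days and 11.7% at 6 days. In each of these it was 161849_r_at, and the counts are close to these shares. Against 21 days, 0 of 7 were called at off 2, 4 or 6 days, with 0.153%, 6.01% and 0.274% of all probe sets called, and at an unadjusted p under 0.05 it was 0, 1 and 1 of 7, with 16.1%, 28% and 13.8% of all probe sets. Among the 9 groups together, limma's F test called 2 of 7, 161849_r_at (adjusted p = 5.78e-05) and 94148_at, with 37.9% of all probe sets called. The median change of the 7 at 21 days against untreated was 0.307, and that of all probe sets was 0.04. Comparisons with untreated islets share the untreated arrays.

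Genes that act around the hormones were read from lists of transcription factors, processing enzymes, granule proteins, glucose sensing genes, other peptide hormones and receptors. Among 13 measured beta cell transcription factors, Pdx1, the factor that drives insulin transcription, fell to 6.23 ± 0.12 at 4 h and 5.92 ± 0.20 at 8 h, against 7.06 ± 0.10 in untreated islets (SD, n = 3 each). The limma adjusted p was 0.0498 at 4 h, just under the threshold, and 0.00457 at 8 h. Pdx1 was also lower at 21 days (-1.01), off 4 days (-0.66) and off 6 days (-0.643). It was not called against untreated at 2 h, 24 h (6.77 ± 0.44, SD, n = 3) or off 2 days. No other of the 13 was called at 4 h, 8 h or off 6 days, where limma called 0.797%, 1.7% and 11.7% of all probe sets. Myt1, a zinc finger factor of endocrine cells, rose by 1.023 at 21 days, and Foxa2, a forkhead factor of endoderm, rose by 0.687 at off 4 days, both against untreated. The median change of the list was -0.26 at 4 h and -0.333 at 8 h, against -0.02 and -0.06 for all probe sets. Of the 13, 2 had a change above 0 at 4 h and 1 at 8 h. At 21 days the median change of the list was 0.107, against 0.04 for all probe sets.

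Of 9 measured glucose sensing genes, 5 were lower and 0 higher at 21 days against untreated, with a median change of -0.673. Over all 12422 probe sets, 916 were lower at 21 days. Of the lists of other cell types, 3 of 12 endothelial markers were lower and 1 higher there (median change -0.217), with 14.6% of all probe sets called. Of 15 stellate and fibroblast markers, 14 had a change above 0 (median 0.357, 0 called). The 17 acinar markers had a median change of -1.88 (0 called). Their part in the lower glucose sensing genes was not tested. Abcc8, the sulfonylurea receptor subunit of the channel that triggers insulin release, fell to 9.87 ± 0.33, against 11.75 ± 0.19 in untreated islets (SD, n = 3 each). Ero1b, which forms disulphide bonds in the endoplasmic reticulum of beta cells, changed by -1.74, and Slc2a2, the glucose transporter of mouse beta cells, by -1.627. At off 4 days Abcc8 was 1.693 and Ero1b 0.863 above the 21 day level, and both were called. Without off 4 days replicate 1, limma called 1 of all 12422 probe sets in that comparison, against 746 with it. Against untreated, 5 of the 9 were lower at off 2 days, 2 at off 4 days and 6 at off 6 days, and 0 were higher. Over all probe sets 1354, 1470 and 861 were lower at these times. The 2 at off 4 days were Ero1b and the receptor gene Sstr3, so neither Abcc8 nor Slc2a2 was called lower then. Ero1b and Sstr3 were also among those lower at off 2 and off 6 days. The list also holds hormone receptor genes, of which Gcgr, the glucagon receptor, was lower at off 4 days than at 21 days (-0.437) and Sstr3, a somatostatin receptor, was lower at off 4 days than in untreated islets (-0.457).

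Of 11 measured genes of prohormone processing, 1 was higher and 1 lower at 21 days against untreated, with 14.6% of all probe sets called. Ctsl, the protease cathepsin L, was higher by 0.903 at 21 days and by 1.283, 1.353 and 1.077 at off 2, 4 and 6 days. Furin, a convertase of the secretory pathway, changed by -0.333 at 21 days, and its changes at off 2 and 4 days were -0.723 and -0.613. Of 18 measured granule proteins, 0 were called at 21 days against untreated, where limma called 14.6% of all probe sets. At off 4 days 3 were higher and 3 lower against untreated, where limma called 23.7% of all probe sets. The 3 higher had the largest changes and so are the ones named: Resp18 (1.147), Vamp2, the vesicle SNARE of granule release (0.697), and its partner Stx1a (0.607). Chga, chromogranin A, was 0.533 higher at off 4 days than at 21 days (limma adjusted p = 0.0273). Without off 4 days replicate 1, limma called only 1 of all probe sets in that comparison. Ptprn, a membrane protein of the granule, was lower at 8 h (-0.95).

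Of 8 measured regulators and markers of alpha, delta and PP cells, Hhex, a homeodomain factor needed for delta cells in mice, was lower at 21 days (6.24 ± 0.15 against 6.82 ± 0.15 in untreated islets, SD, n = 3 each), and 0 were higher. Limma called 14.6% of all probe sets in that comparison. At off 4 days Ttr, a thyroid hormone carrier abundant in alpha cells, was higher by 1.097, and Dpp4, the peptidase that inactivates incretins, was lower (-0.477). Of 16 other peptide hormones, Cck (cholecystokinin) was higher at 21 days (6.55 ± 0.36 against 5.65 ± 0.12 in untreated islets, SD, n = 3 each). It was lower at off 4 days than at 21 days (-0.937, limma adjusted p = 0.0229). That comparison had only 1 call over all probe sets without off 4 days replicate 1. Penk (proenkephalin) was lower at 21 days (-0.547) and at each time off drug. Of 4 measured relatives of insulin, 0 were called against untreated at any time. Igf2 was higher at 21 days than at 24 h (0.507), where limma called 20.8% of all probe sets. That comparison had 2587 calls over all probe sets, and 273 with the acinar and leukocyte covariates. Against untreated, limma called 0.394% (2 h) to 23.7% (off 4 days) of all probe sets, depending on the time.

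Of 14 measured receptors for these hormones, 1 was higher and 1 lower at 21 days against untreated, where limma called 14.6% of all probe sets. Ramp1, the accessory protein that with the calcitonin receptor forms a receptor for amylin, rose to 8.88 ± 0.38 at 21 days, against 7.42 ± 0.13 in untreated islets (SD, n = 3 each). Off drug its changes from untreated were 1.79, 2.033 and 1.77 at 2, 4 and 6 days. Ramp3, another such accessory protein, was lower at 21 days (-0.5), and Sstr3 was lower at off 2, 4 and 6 days (-0.37, -0.457 and -0.34).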

How the data were processed

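RNA from laser-captured islets was linearly amplified in 2 rounds and labelled with biotin, per the labels, and hybridised to 27 Affymetrix arrays. The values deposited by the authors are on a log2 scale and were made with RMA (submitters' processing notes), a method whose version is not given in the sources used here. They were taken as deposited. Of 12488 probe sets, 66 controls were left out. By the platform annotation 10833 of the remaining 12422 have 1 symbol, 396 several and 1193 none.

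Differences were tested with limma 3.58.1 under R 4.3.3 (lmFit and eBayes on all 27 arrays, 9 group means, 18 residual degrees of freedom, two-sided), for 12 comparisons and for any difference among the groups (moderated F), with Benjamini-Hochberg adjustment over 12422 probe sets. With 3 arrays against 3, their number limits the precision. The method was tested on simulated data. Correlations used deviations from group means, with 100000 permutations within groups (scipy 1.17.1). A gene outside the hormones stands for its probe set with the highest mean. Named were the 3 genes most like the brightest probe set of each hormone gene by Pearson's r. Genes named from a list were taken from its 3 called genes with the largest change in a comparison. Not all of these are named, so the named genes are a selection. The members and lists were chosen with earlier results of these data known. Replicate numbers did not pair the arrays: correlations of same-numbered arrays lay between -0.263 and 0.361, and 0 of 12 comparisons had all pairs above 0.1.

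The other settings were median centring, quantile normalization, a filter on the 40% lowest probe sets, array weights, a trend and robust variance, a replicate block, acinar and leukocyte covariates, the 6 arrays compared and leaving out each array. The fits without 4 leukocyte-rich arrays and with the Gapdh 3' minus 5' signal as a covariate were chosen after seeing the data.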

Additional observations from a re-analysis of the deposited data

How the results depend on the processing

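Of the 5 called hormone changes, all of Ins2 161849_r_at, 76 of 85 values under other settings stayed called and 0 changed sign. Of the 79 uncalled results, 13 of 1343 values were called and 109 changed sign. Against 24 h, the 21 day call was lost with quantile normalization (-0.306, adjusted p = 0.0696), so that 0 hormone probe sets were called there, and 0 were with the acinar covariate and with acinar and leukocyte covariates (-0.438, adjusted p = 0.167). A fit of only the 6 arrays compared called 3 there, 3 at 21 days against untreated, 2 at off 2 days, 2 at off 4 days and 0 at off 6 days (161849_r_at adjusted p = 0.15). At off 4 days, array weights, the fit without the 4 leukocyte-rich arrays and the Gapdh covariate each called 2, the second being Ppy 94148_at (adjusted p = 0.0498, 0.0114 and 0.0469). At off 6 days array weights called 2 (Ppy 1.877, adjusted p = 0.0176). Without the leukocyte-rich arrays 2 were called at 21 days. None of those arrays is in the untreated, 21 days or off 4 days groups, so the changes there could not move in that fit. The F test called 1 with the acinar covariate. Leaving out each array called 0 to 1 at off 6 days and 1 to 2 by the F test. With the replicate block, 1 was called at 21 days and at each time off drug against untreated, and 2 by the F test (adjusted p = 0.00014 and 0.0321); it changed no other call. Counts over all probe sets moved as well, between the lowest and highest of the other settings that keep all or a chosen set of arrays: 0 to 132 at 2 h (49 as reported), 20 to 140 at 4 h (99), 5 to 278 at 8 h (211) and 45 to 336 at 24 h (171). At 21 days they were 1221 to 2108 against untreated (1819) and 273 to 4256 against 24 h (2587). Off drug they were 1119 to 2829, 2238 to 3607 and 37 to 2399 against untreated (2562, 2947 and 1456) and 0 to 625, 397 to 3360 and 0 to 1283 against 21 days (19, 746 and 34). By the F test they were 2708 to 5925 (4713). Leaving out 1 array gave 1 (off 4 days replicate 1) to 1071 (21 days replicate 3) at off 4 days against 21 days. Few arrays and the wide spread of Gcg limit what could be detected, and saturation near the top of the scale was not tested.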
